A study of Mus musculus with 20 samples.

Results

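Interferon-stimulated genes are the genes that a cell switches on when interferon reaches its receptor. A set of 33 of them was followed by gene symbol through RNA libraries of 2 stromal populations from the marrow of mice that carried normal or floxed alleles of Ebf1, a transcription factor. A gene was tested if it reached 1 FPKM (fragments counted on a transcript, divided by its length in kilobases and scaled by library) in at least 3 of the 12 libraries. This left 31 of the 33 genes, among 12938 genes tested of the 24347 symbols in the tables. Of the 33, 29 reached 1 FPKM in all 12 libraries and Mx2 did so in 11. Oas3 passed with only 3 libraries, all of PaS cells, at 0.123 to 1.39 FPKM over the 12. The 2 genes left untested were Oas2, which reached 1 FPKM in 1 library (1.02 FPKM), and Mx1, which reached at most 0.803 FPKM.

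CAR cells (CXCL12-abundant reticular cells) and PaS cells (stromal cells positive for PDGFRα and Sca1) were sorted from crushed and enzyme-digested femora and tibiae of C57BL/6 mice. Both gates required CD45-, CD31-, Lin- and PDGFRα+, and they differed in Sca1, which CAR cells lacked and PaS cells carried. The groups labelled wt were Ebf1+/+;Prx1+/cre and those labelled ko were Ebf1fl/fl;Prx1+/cre, so wt and ko both carried the Prx1-cre transgene, which is active in limb mesenchyme. Each of the 4 groups had 3 libraries. Age and sex of the mice are not given in the labels. The labels do not say whether the replicates came from separate animals or pools, so the p-values measure only the spread between these libraries, which may be technical.

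Type I interferons bind the receptor made of IFNAR1 and IFNAR2, and the kinases JAK1 and TYK2 then pass the signal on by phosphorylation. The factor ISGF3, which contains STAT2 and IRF9, forms and binds the interferon-stimulated response element (ISRE). Interferon gamma acts through IFNGR1 and IFNGR2, and its signal reaches genes with a gamma-activated site (GAS), and Irf1 is among its best known targets. Many of the products block viral entry, translation or budding, and several are kept at a basal level without infection.

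Promoters of 7 genes called between the populations are printed to show what these sites look like, and they were chosen because they hold a match. Ifi44, Oasl2, Irf7 and Cmpk2, which were called in both genotypes, hold neither motif in the window searched. The 7 are stretches of the RefSeq promoters of the assembly GRCm38.p6, written 5′ to 3′ on the strand of the gene and ending before its start, with the matches to the motifs in capitals. Isg15 (chr4:156200860-156200911, minus strand), Bst2 (chr8:71537572-71537623, minus strand) and Irgm1 (chr11:48871421-48871465, minus strand) were higher in CAR cells, and so was Irf1 (chr11:53769909-53769947, plus strand). Igtp (chr11:58199496-58199546, plus strand) was called higher in CAR cells of wt only. Rsad2 (chr12:26456548-26456587, minus strand) and Ifit2 (chr19:34550444-34550476, plus strand) were higher in PaS cells. For Irf1 and Ifit2, which have 2 listed starts each, the most upstream start was used.
Isg15: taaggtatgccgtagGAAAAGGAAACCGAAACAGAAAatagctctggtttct
Bst2: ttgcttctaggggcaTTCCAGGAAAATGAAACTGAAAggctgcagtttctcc
Irgm1: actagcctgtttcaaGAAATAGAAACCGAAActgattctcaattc
Igtp: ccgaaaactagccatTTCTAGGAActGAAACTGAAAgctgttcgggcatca
Irf1: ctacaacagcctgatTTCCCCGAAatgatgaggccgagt
Rsad2: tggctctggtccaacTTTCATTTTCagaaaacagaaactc
Ifit2: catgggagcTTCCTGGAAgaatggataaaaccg
The ISRE was searched on both strands as GAAA repeated after a gap of 2 bases of any kind. The GAS was searched as TTC and GAA with 3 bases of any kind between them, which reads the same on both strands. The capitals of Isg15 and Irgm1 are overlapping ISRE matches, and those of Rsad2 are an ISRE on the opposite strand. Bst2 holds a GAS that runs into its ISRE matches, since the letters of the motifs can overlap. Igtp holds a GAS followed by an ISRE, and Irf1 and Ifit2 hold a GAS.

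In windows from 250 bases before to 50 bases after the start, 24 of the 33 genes had a RefSeq promoter sequence. Of these, 13 (54.2%) held an ISRE match, against 3.99% of 27025 RefSeq genes and 3.82% of the 9775 tested genes with a sequence. A GAS match was present in 7 of the 24 (29.2%), against 9.55% of the RefSeq genes. The ISRE was not tied to 1 direction between the populations: it was in 6 of 11 promoters of genes higher in wt CAR cells, in 1 of 3 of those lower, and in 6 of 10 of those not called. A match describes letters and not binding.

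The FPKM of a library summed to between 491801 and 526074, and the read depth is unknown, since the deposited values are normalized. Replicate 1 of PaS wt differed from the rest with 24.6% of its symbols listed at 0, where the others had 33.3% to 37.0%. Ly6a, which encodes Sca1, had a mean of 4.66 ± 0.815 FPKM (SD, n = 3) in the CAR wt libraries, against 1963 ± 218 FPKM in those of PaS wt. All 8 CAR cell markers were higher and all 7 PaS cell markers were lower in CAR than in PaS cells, in wt and in ko. Of all tested genes, 20.5% were called higher and 22.7% lower in CAR cells of wt, and 17.0% and 19.8% in ko. Ly6a is among the 7, and the sort by Sca1 set its direction in advance. The label ko did not go with a lower level of Ebf1 itself, which averaged 48.1 ± 1.10 FPKM in wt against 57.5 ± 1.99 FPKM in ko for CAR cells, and 55.9 ± 5.89 against 62.5 ± 2.18 FPKM for PaS cells. By limma on the log2(FPKM + 1) scale, Ebf1 was called higher in CAR ko (0.25, adjusted p = 0.040). In PaS ko it was not called (0.16, adjusted p = 0.25). A value for the whole gene does not show whether a part of it was deleted, so these values do not check the ko label.

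The levels of the 33 genes spanned a wide range. Irf1, a transcription factor, and Bst2, which encodes the membrane protein tetherin that holds budding virus at the cell surface, led in every group and were the only genes with a mean over the 12 libraries above 100 FPKM. Together they made up 45.3% to 59.6% of the summed FPKM of the 33 genes in a library. The means of 13 genes lay between 10 and 100 FPKM, and those of 16 of the tested genes lay below 10. Isg15 and Ifi35 came next after Irf1 and Bst2, and the lowest tested genes were Parp14, Oas1a, Mx2 and Oas3. In Mx1 and Oas2, some libraries were listed at 0.

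**Figure D1:**
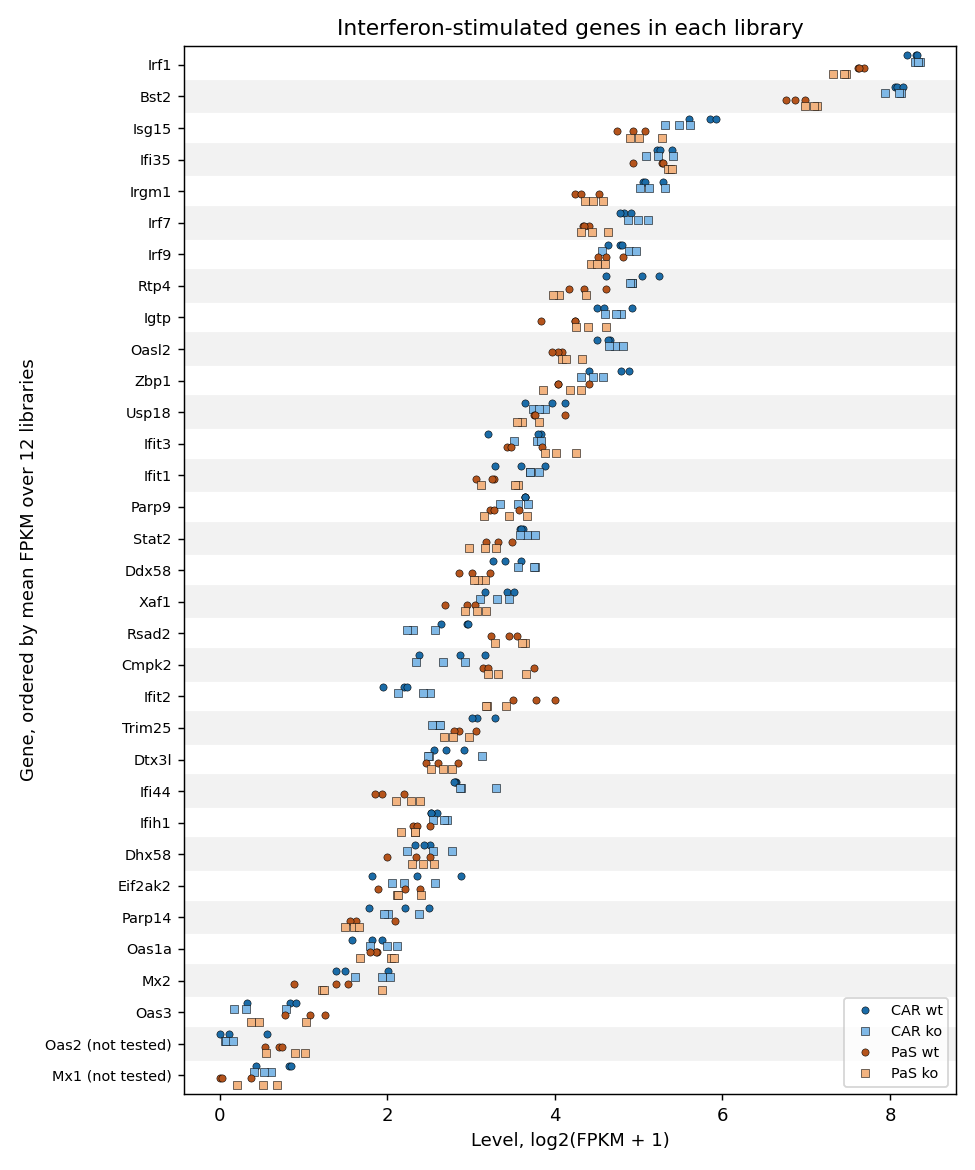
Level of each of the 33 genes in each library on the log2(FPKM + 1) scale (x axis), with genes ordered by their mean FPKM (y axis). Blue circles and squares are CAR wt and CAR ko, brown circles and orange squares are PaS wt and PaS ko, 3 libraries each; the blue points of Irf1 and Bst2 lie right of all brown and orange points, and those of Ifit2 and Rsad2 lie left.

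The comparison of the populations shows where these genes differed most. In wt cells, 13 of the 31 tested genes were higher in CAR than in PaS cells and 3 were lower, and in ko cells 11 were higher and 3 lower. Of all tested genes, 43.2% were called in wt cells (20.5% higher in CAR, 22.7% lower) and 36.9% in ko cells (17.0% higher, 19.8% lower), by limma with Benjamini-Hochberg adjustment. So the share called lower was below the background and the share called higher was above it, with no test over the list. The median difference of the 31 genes on the log2(FPKM + 1) scale was 0.29 in wt and 0.29 in ko cells, beside 0.00 over all tested genes in ko. Without any overlap between the 3 libraries of each side, 15 of the 31 were above and 2 below in wt (24.4% and 26.7% of all tested genes), and 13 above and 5 below in ko (22.8% and 25.1%). All 6 CAR libraries were above all 6 PaS libraries for 10 genes and below them for 2, against 11.9% and 15.3% of all tested genes. The wt and ko comparisons set different libraries against each other. Both came from 1 fit, in which all 12 libraries shared the estimate of spread, so they are not independent. Of the 16 genes called in wt and the 14 called in ko, 12 were called in both. The same overlap was not counted over all tested genes, so it is not shown to be particular to these genes. The genes called in 1 genotype and not in the other, Ifit1, Xaf1, Igtp and Zbp1 in wt and Stat2 and Ifih1 in ko, are not shown to differ between genotypes, since the test of that difference called 0 of the 31. In bulk libraries, fewer cells expressing a gene and less RNA per cell cannot be told apart.

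**Figure D2:**
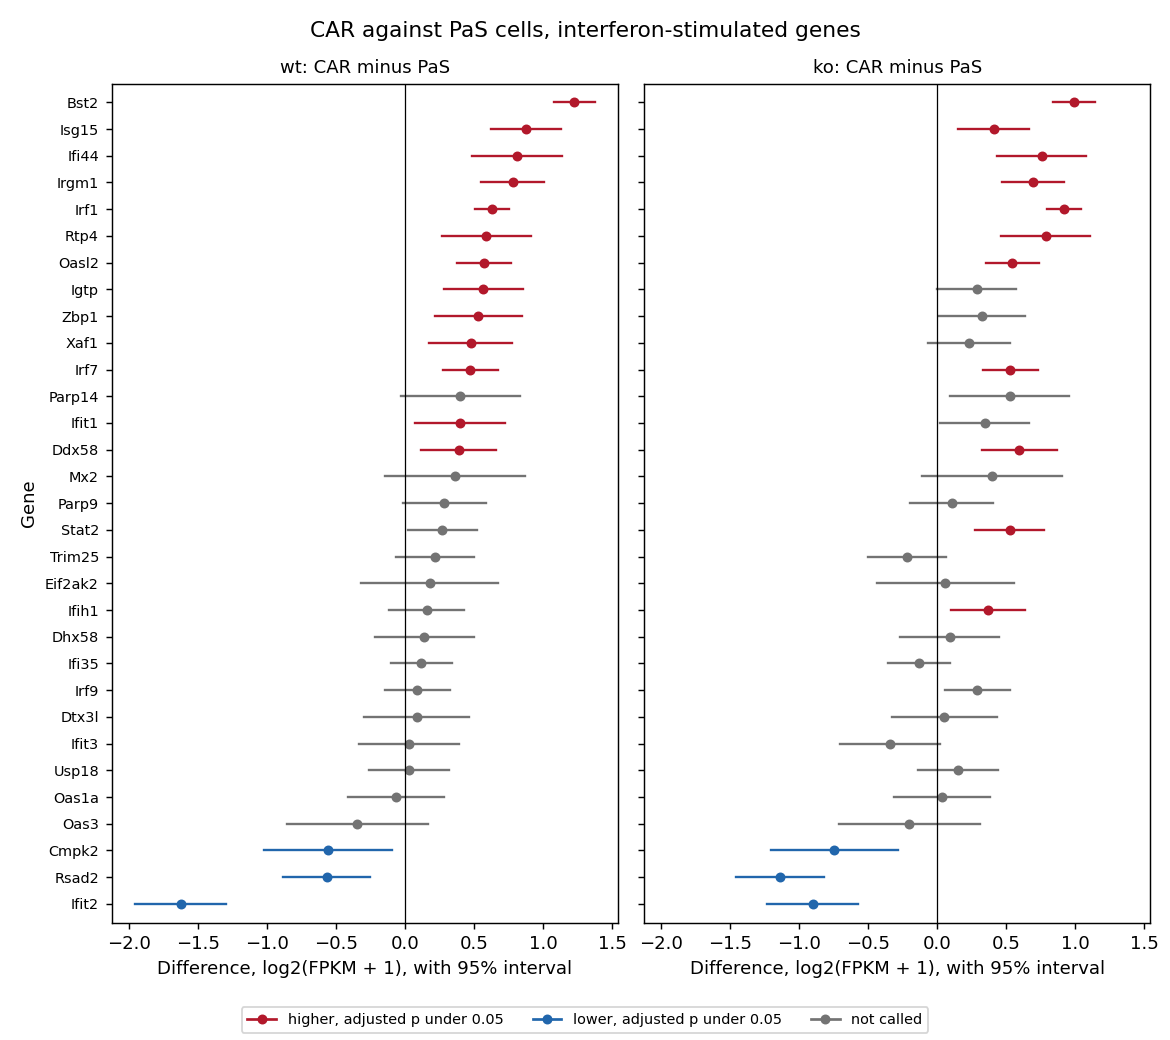
Difference between CAR and PaS cells for the 31 tested genes on the log2(FPKM + 1) scale (x axis), in wt (left) and ko cells (right), as points with 95% intervals from the limma fit. Red points were called higher in CAR, blue lower and grey neither; Bst2 is at the top with 1.23 in wt, and Ifit2 at the bottom with -1.63.

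Of the transcription factors, Irf1 and Irf7 were higher in CAR cells in both genotypes. Irf1 had 292, 315 and 319.6 FPKM in the CAR wt libraries, 328, 313 and 320.4 FPKM in CAR ko, 195, 205 and 197 FPKM in PaS wt, and 176, 158 and 174 FPKM for PaS ko. All 6 CAR libraries lay above all 6 PaS libraries. The difference was 0.63 (SE 0.06, adjusted p = 2.5e-07) in wt and 0.92 (SE 0.06, adjusted p = 3.2e-09) in ko cells. Irf7, the factor that amplifies type I interferon production, had 27.4, 28.9 and 26.5 FPKM in the CAR wt libraries, 30.9, 33.6 and 28.3 FPKM in CAR ko, 19.1, 20.3 and 19.4 FPKM in PaS wt, and 23.8, 20.8 and 18.9 FPKM for PaS ko. Its CAR and PaS libraries did not overlap either, with differences of 0.47 (SE 0.09, adjusted p = 7.2e-04) in wt and 0.53 (SE 0.09, adjusted p = 3.1e-04) in ko.

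Stat2 and Irf9, members of ISGF3, differed less than Irf1 and Irf7 in wt cells. In ko cells Irf9 also differed less, while Stat2 was near Irf7 (0.53). Stat2 had 11.0, 11.3 and 11.1 FPKM in the CAR wt libraries, 11.7, 12.6 and 11.0 FPKM in CAR ko, 8.03, 9.03 and 10.2 FPKM in PaS wt, and 6.84, 8.01 and 8.87 FPKM for PaS ko. Every CAR library was above every PaS library, but the difference passed the test only in ko cells, at 0.52 (SE 0.12, adjusted p = 0.0022), and was 0.27 (SE 0.12, adjusted p = 0.077) in wt. The difference between these values was 0.25 (adjusted p = 0.44). Irf9 ranged from 20.7 to 30.2 FPKM over the 12 libraries with all groups overlapping, and its differences were 0.09 (adjusted p = 0.55) in wt and 0.29 (adjusted p = 0.051) in ko.

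The genes of the ISG15 system, in which the ubiquitin-like protein ISG15 is joined to other proteins, did not all differ. Isg15 had 56.8, 47.6 and 59.5 FPKM in the CAR wt libraries, 48.0, 38.7 and 43.8 FPKM in CAR ko, 32.6, 29.6 and 25.7 FPKM in PaS wt, and 37.8, 31.2 and 28.9 FPKM for PaS ko. All CAR libraries were above all PaS libraries, by 0.88 (SE 0.12, adjusted p = 2.0e-05) in wt and 0.41 (SE 0.12, adjusted p = 0.013) in ko cells. Leaving out CAR ko 1 or PaS ko 3 ended the ko call of Isg15 (adjusted p = 0.064 and 0.068). Usp18, the protease that removes ISG15 and dampens receptor signalling, ranged from 10.7 to 16.5 FPKM, with a wt difference of 0.03 (adjusted p = 0.88). Trim25, a ubiquitin ligase for ISG15 and an activator of RIG-I, was not called between the populations, with 0.22 (adjusted p = 0.20) in wt and -0.22 (adjusted p = 0.22) in ko.

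Among effectors, tetherin and viperin went in opposite directions. Bst2 had 266, 269.6 and 283 FPKM in the CAR wt libraries, 245, 279 and 274 FPKM in CAR ko, 107, 116 and 125 FPKM in PaS wt, and 125, 139 and 135 FPKM for PaS ko. The lowest CAR library lay far above the highest PaS library, and Bst2 had the largest difference of the genes higher in CAR, 1.23 (SE 0.07, adjusted p = 8.4e-10) in wt and 0.99 (SE 0.07, adjusted p = 1.3e-08) in ko. Rsad2, which encodes viperin, an enzyme that makes a chain-terminating nucleotide, had 6.75, 5.22 and 6.78 FPKM in the CAR wt libraries, 4.96, 3.96 and 3.72 FPKM in CAR ko, 9.99, 8.46 and 10.7 FPKM in PaS wt, and 8.74, 11.5 and 11.2 FPKM for PaS ko. Here every PaS library was above every CAR library, with differences of -0.57 (SE 0.15, adjusted p = 0.0058) in wt and -1.14 (SE 0.15, adjusted p = 1.4e-05) in ko.

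Cmpk2, a nucleotide kinase that supplies the substrate of viperin, lies next to Rsad2 on chromosome 12, 12.7 kb away on the opposite strand. It had 6.29, 8.02 and 4.22 FPKM in the CAR wt libraries, 6.60, 5.34 and 4.08 FPKM in CAR ko, 7.86, 12.5 and 8.18 FPKM in PaS wt, and 11.6, 8.97 and 8.22 FPKM for PaS ko. Cmpk2 was lower in CAR cells as Rsad2 was, with differences of -0.56 (SE 0.22, adjusted p = 0.049) in wt and -0.75 (SE 0.22, adjusted p = 0.013) in ko, but the wt libraries of the populations overlapped. The wt call ended in 12 of 21 alternative analyses, with adjusted p from 0.051 to 0.23, among them leaving out CAR wt 1, CAR wt 3, CAR ko 2, PaS wt 2, PaS wt 3, PaS ko 2 or PaS ko 3. The wt difference of Cmpk2 was -0.35 without CAR wt 3 and -0.37 without PaS wt 2. The ko call ended without CAR ko 3 or PaS ko 1 (adjusted p = 0.066 and 0.062).

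The IFIT proteins bind viral RNA and block its translation, and their genes lie together on chromosome 19, Ifit2 and Ifit3 6.59 kb apart. Ifit2 had 3.61, 2.88 and 3.73 FPKM in the CAR wt libraries, 4.71, 3.38 and 4.39 FPKM in CAR ko, 12.7, 15.0 and 10.3 FPKM in PaS wt, and 8.11, 8.03 and 9.70 FPKM for PaS ko. Its PaS libraries were all above its CAR libraries, and in wt cells this was the largest difference of the 31 genes, -1.63 (SE 0.16, adjusted p = 4.1e-07), against -0.90 (SE 0.16, adjusted p = 2.3e-04) in ko. Ifit1, by contrast, had 11.1, 8.77 and 13.7 FPKM in the CAR wt libraries, 12.1, 12.1 and 13.0 FPKM in CAR ko, 8.65, 8.49 and 7.31 FPKM in PaS wt, and 7.66, 10.8 and 10.5 FPKM for PaS ko. Within each genotype its CAR libraries were above its PaS libraries, with 0.40 (SE 0.15, adjusted p = 0.046) in wt and 0.34 (SE 0.15, adjusted p = 0.094) in ko. The wt call of Ifit1 ended in 13 of 21 alternatives, with adjusted p from 0.052 to 0.22, among them leaving out CAR wt 1, CAR wt 3, CAR ko 1, CAR ko 2, CAR ko 3, PaS wt 1, PaS wt 2, PaS wt 3 or PaS ko 3. The wt difference of Ifit1 was 0.25 without CAR wt 3. Ifit3 had 8.25, 13.3 and 12.9 FPKM in the CAR wt libraries, 10.4, 12.8 and 13.2 FPKM in CAR ko, 9.79, 10.1 and 13.4 FPKM in PaS wt, and 18.1, 15.2 and 13.7 FPKM for PaS ko. Its wt groups overlapped with a difference of 0.03 (adjusted p = 0.90), while in ko every PaS library was above every CAR library, -0.34 (adjusted p = 0.14). Ifit3 has a near-identical copy, Ifit3b, so its values are uncertain.

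The OAS genes encode sensors of double-stranded RNA that activate RNase L, and Oasl2 is a relative. Only Oasl2 was called. It had 21.7, 24.2 and 23.9 FPKM in the CAR wt libraries, 25.4, 27.0 and 24.1 FPKM in CAR ko, 16.0, 15.4 and 14.6 FPKM in PaS wt, and 19.0, 16.0 and 16.6 FPKM for PaS ko. The CAR libraries all lay above the PaS libraries, by 0.57 (SE 0.09, adjusted p = 9.8e-05) in wt and 0.54 (SE 0.09, adjusted p = 1.7e-04) in ko. Oas1a, which has near-identical copies, ranged from 2.00 to 3.34 FPKM with all groups overlapping. Oas3 had 0.791, 0.884 and 0.253 FPKM in the CAR wt libraries, 0.248, 0.123 and 0.729 FPKM in CAR ko, 0.725, 1.39 and 1.11 FPKM in PaS wt, and 0.385, 1.05 and 0.299 FPKM for PaS ko, and Oas2 was at or below 1.02 FPKM throughout.

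The GTPases of the dynamin-like Mx and the immunity-related groups act on viral capsids and on vacuoles of intracellular parasites. Irgm1, a regulator of the immunity-related GTPases, had 32.1, 38.0 and 32.8 FPKM in the CAR wt libraries, 39.0, 33.8 and 31.4 FPKM in CAR ko, 22.0, 17.8 and 18.9 FPKM in PaS wt, and 22.8, 19.5 and 20.9 FPKM for PaS ko. Each CAR library was above each PaS library, by 0.78 (SE 0.11, adjusted p = 2.0e-05) in wt and 0.69 (SE 0.11, adjusted p = 7.3e-05) in ko. Igtp, another of these GTPases, had 21.7, 23.1 and 29.3 FPKM in the CAR wt libraries, 26.7, 23.3 and 25.6 FPKM in CAR ko, 13.3, 17.9 and 17.8 FPKM in PaS wt, and 23.4, 18.1 and 20.1 FPKM for PaS ko. Its wt populations did not overlap, with 0.57 (SE 0.13, adjusted p = 0.0028), whereas its ko populations did, with 0.29 (SE 0.13, adjusted p = 0.11). Mx2 had 1.83, 1.62 and 3.01 FPKM in the CAR wt libraries, 2.85, 3.08 and 2.07 FPKM in CAR ko, 0.851, 1.63 and 1.88 FPKM in PaS wt, and 1.33, 1.38 and 2.83 FPKM for PaS ko. These groups overlapped, and Mx2 was not called in either genotype. Mx1, its neighbour, lay between 0 and 0.803 FPKM and was not tested.

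The RIG-I-like receptors sense viral RNA in the cytoplasm. Ddx58, which encodes RIG-I, had 9.59, 8.60 and 11.1 FPKM in the CAR wt libraries, 12.6, 12.5 and 10.8 FPKM in CAR ko, 8.34, 6.23 and 7.08 FPKM in PaS wt, and 8.01, 7.46 and 7.18 FPKM for PaS ko. All CAR libraries were above all PaS libraries, by 0.39 (SE 0.13, adjusted p = 0.022) in wt and 0.60 (SE 0.13, adjusted p = 0.0015) in ko. The wt call of Ddx58 ended in 4 of 21 alternatives, 3 of them leaving out 1 library (CAR wt 3, PaS wt 2 or PaS wt 3), with adjusted p up to 0.10. Ifih1, which encodes MDA5, had 5.05, 4.76 and 4.77 FPKM in the CAR wt libraries, 5.56, 4.86 and 5.39 FPKM in CAR ko, 4.68, 3.97 and 4.14 FPKM in PaS wt, and 4.06, 3.50 and 4.02 FPKM for PaS ko. The populations again did not overlap, but the differences were small, 0.16 (SE 0.13, adjusted p = 0.34) in wt and 0.37 (SE 0.13, adjusted p = 0.031) in ko. The ko call of Ifih1 ended when CAR ko 1, CAR ko 3, PaS ko 2 or PaS ko 3 was left out (adjusted p = 0.098, 0.087, 0.10 and 0.051) and when only the groups compared were fitted (0.056).

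Zbp1, a sensor of Z-form nucleic acid that can trigger necroptosis, had 20.3, 26.6 and 28.7 FPKM in the CAR wt libraries, 18.8, 20.9 and 22.8 FPKM in CAR ko, 15.5, 20.2 and 15.4 FPKM in PaS wt, and 18.9, 13.5 and 17.2 FPKM for PaS ko. The wt CAR libraries were above the wt PaS libraries by 0.53 (SE 0.15, adjusted p = 0.0083), with CAR wt 1 only just above PaS wt 2, and in ko the libraries overlapped, 0.33 (SE 0.15, adjusted p = 0.10). The other sensors were not called between populations. Dhx58, the regulator LGP2, had 3.00 to 5.84 FPKM over the libraries, and Eif2ak2, the kinase PKR that stops translation, had 2.52 to 6.37 FPKM.

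Of the remaining interferon-induced genes, 3 of 4 were higher in wt CAR cells. Ifi44 had 6.07, 6.00 and 5.96 FPKM in the CAR wt libraries, 6.37, 8.81 and 6.30 FPKM in CAR ko, 2.84, 3.59 and 2.61 FPKM in PaS wt, and 3.87, 4.26 and 3.29 FPKM for PaS ko. Its populations did not overlap, and the differences were 0.81 (SE 0.15, adjusted p = 4.4e-04) in wt and 0.76 (SE 0.15, adjusted p = 9.2e-04) in ko. Rtp4, a receptor-transporting protein, had 32.0, 23.4 and 37.0 FPKM in the CAR wt libraries, 29.4, 29.3 and 28.8 FPKM in CAR ko, 17.0, 23.5 and 19.3 FPKM in PaS wt, and 19.6, 15.5 and 14.7 FPKM for PaS ko. The lowest CAR wt library lay among the PaS wt libraries, yet the difference passed the test, 0.59 (SE 0.15, adjusted p = 0.0051) in wt and 0.78 (SE 0.15, adjusted p = 6.2e-04) in ko. Xaf1, a proapoptotic protein, had 8.01, 9.77 and 10.4 FPKM in the CAR wt libraries, 7.65, 8.95 and 9.93 FPKM in CAR ko, 7.24, 5.44 and 6.76 FPKM in PaS wt, and 7.43, 8.08 and 6.62 FPKM for PaS ko. The wt libraries were separate, 0.48 (SE 0.14, adjusted p = 0.012), and the ko libraries were not, 0.23 (SE 0.14, adjusted p = 0.23). Leaving out CAR wt 3 or PaS wt 2 ended the wt call of Xaf1 (adjusted p = 0.055 and 0.059). Ifi35 was not called in any comparison, with 38.1 ± 2.68 FPKM in CAR wt, 37.0 ± 4.42 in CAR ko, 35.2 ± 4.88 in PaS wt and 40.5 ± 0.762 in PaS ko (SD, n = 3).

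Parp9, Parp14 and Dtx3l encode ADP-ribosyltransferases and the ubiquitin ligase that pairs with PARP9. They were not called in any comparison of the main fit. Parp9 ranged from 7.91 to 11.9 FPKM, Dtx3l from 4.53 to 7.74 FPKM and Parp14 from 1.82 to 4.67 FPKM. All ko CAR libraries of Parp14 lay above its ko PaS libraries, by 0.53 (SE 0.20, limma adjusted p = 0.054). Some alternatives called it there, among them quantile normalization (0.024) and the replicate block (0.046). Leaving out CAR wt 3 or PaS wt 2 gave a wt call of Parp14 (0.033 and 0.044). The wt libraries of Parp9 did not overlap either, with CAR above by 0.29 (adjusted p = 0.12). Parp9 and Dtx3l overlap in the annotation, and whether strand was used in counting is not given in the sources used here, so reads of the pair cannot be told apart.

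Few of these genes were called between ko and wt. In CAR cells, none of the 31 was called higher and 2 were called lower (6.45%), against 12.3% of all tested genes called (6.51% higher, 5.74% lower). In PaS cells, none was higher and 1 was lower (3.23%), against 7.44% of all genes (3.41% higher, 4.03% lower). So the shares called lower were near the background, and no trait of the list is read from these counts. The median ko effect of the 31 genes was 0.02 in CAR and 0.07 in PaS cells, beside 0.01 and 0.00 over all tested genes. At an unadjusted p under 0.05 there were 3 of the 31 genes in CAR and 5 in PaS cells, against 3207 and 2497 of the 12938 tested genes. The 95% intervals of the ko effects all lay within 1 log2 unit of 0 in both populations, and 28 of 31 lay within 0.75 in each.

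**Figure D3:**
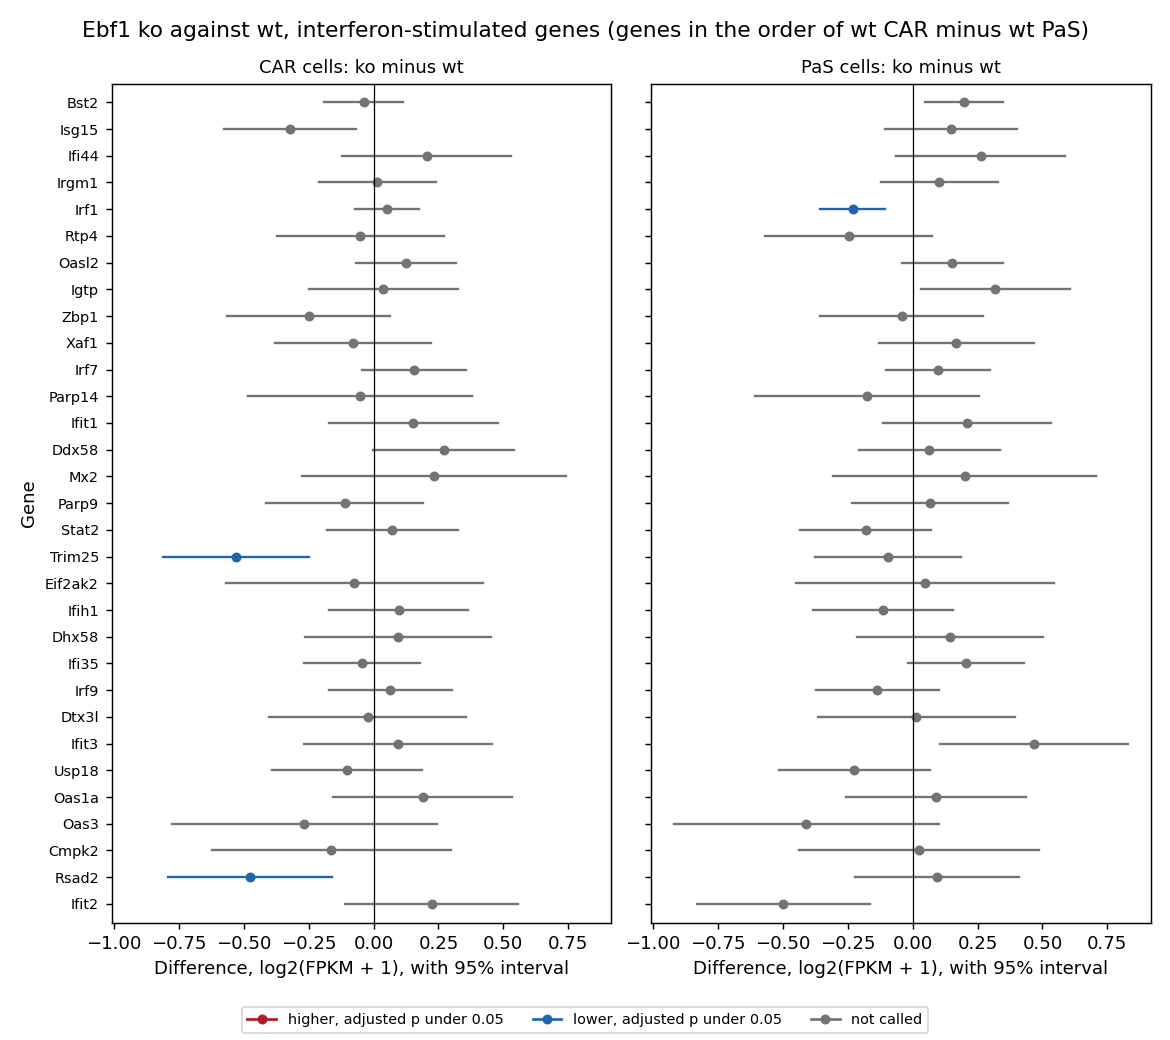
Difference between ko and wt for the 31 tested genes on the log2(FPKM + 1) scale (x axis), in CAR (left) and PaS cells (right), as points with 95% intervals from the limma fit, in the gene order of the wt population difference. Blue points were called lower and grey points not called: Trim25 and Rsad2 in CAR cells and Irf1 in PaS cells are blue.

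Trim25 and Rsad2 were lower in CAR ko than in CAR wt cells. Trim25 had 7.41, 8.79 and 7.04 FPKM in the CAR wt libraries, 5.12, 4.78 and 5.21 FPKM in CAR ko, 7.37, 6.23 and 5.95 FPKM in PaS wt, and 6.87, 5.87 and 5.38 FPKM for PaS ko. All CAR ko libraries were below all CAR wt libraries, while the PaS groups overlapped. The ko effect on Trim25 was -0.53 (SE 0.13, adjusted p = 0.015) in CAR cells and -0.10 (SE 0.13, adjusted p = 0.76) in PaS cells. Leaving out CAR wt 2 or CAR ko 2 ended the call (adjusted p = 0.066 and 0.058). For Rsad2, whose values in each library are given above, the CAR ko libraries were again below the CAR wt libraries, with an effect of -0.48 (SE 0.15, adjusted p = 0.048). In PaS cells the groups overlapped, with 0.09 (SE 0.15, adjusted p = 0.80). The call on Rsad2 ended in 13 of 21 alternatives, with adjusted p from 0.052 to 0.16, among them leaving out CAR wt 1, CAR wt 3, CAR ko 2, CAR ko 3, PaS wt 1, PaS wt 3, PaS ko 2 or PaS ko 3. Exact two-sided permutation tests of Trim25 and of Rsad2 in CAR cells each gave p = 0.1, and no smaller p is possible with 3 libraries a group.

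Irf1 was lower in PaS ko than in PaS wt cells, with no overlap of the libraries and a difference of -0.23 (SE 0.06, adjusted p = 0.021). In CAR cells its groups overlapped, 0.05 (SE 0.06, adjusted p = 0.64). The exact permutation p of Irf1 in PaS cells was 0.1, the smallest possible. The call ended when PaS wt 2, PaS wt 3 or PaS ko 2 was left out (adjusted p = 0.075, 0.051 and 0.11), after quantile normalization (0.082) and when only the PaS groups were fitted (0.052).

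Ifit2, Ifit3, Igtp and Isg15 had ko effects that did not pass the test. Ifit2 was -0.50 (SE 0.16, adjusted p = 0.070) in PaS ko cells, with all ko libraries below all wt libraries, and 0.22 (SE 0.16, adjusted p = 0.42) in CAR cells. Its neighbour Ifit3 was 0.47 (SE 0.17, adjusted p = 0.13) in PaS cells, with all ko libraries above all wt libraries. Igtp was 0.32 (SE 0.13, adjusted p = 0.20) in PaS cells, also without overlap. Isg15 was -0.32 (SE 0.12, adjusted p = 0.10) in CAR cells, with a 95% interval of -0.58 to -0.07, and 0.15 (SE 0.12, adjusted p = 0.56) in PaS cells. With library weights, Isg15 was called lower in CAR ko (-0.36, adjusted p = 0.044). Ifit2 was called lower in PaS ko with a pseudocount of 5 (-0.37, adjusted p = 0.037) and without PaS wt 3 (-0.63, adjusted p = 0.035).

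Over the 31 genes, libraries of ko and wt did not overlap for 3 genes in CAR cells, with Ifi44 above and Rsad2 and Trim25 below, and for 5 in PaS cells, with Ifit3, Igtp and Ifi35 above and Ifit2 and Irf1 below. Of all tested genes, 16.0% were above and 14.0% below without overlap in CAR cells, and 11.5% and 11.9% in PaS cells. The ko effects on Bst2 were -0.04 (adjusted p = 0.80) in CAR and 0.20 (adjusted p = 0.12) in PaS cells. Those on Irf7 were 0.15 (adjusted p = 0.34) and 0.10 (adjusted p = 0.63), and those on Stat2 were 0.07 (adjusted p = 0.77) and -0.18 (adjusted p = 0.46).

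The difference of the ko effects between CAR and PaS cells was called for 0 of the 31 genes by limma, against 6.58% of all tested genes (3.32% higher, 3.26% lower), and 6 of the 31 had an unadjusted p under 0.05, as did 2591 of the 12938 tested genes. Irf1 was nearest, with 0.28 (SE 0.08, adjusted p = 0.052), and Ifit2 had 0.72 (SE 0.22, adjusted p = 0.066). The difference on Irf1 was called with a filter of 5 FPKM and with library weights (adjusted p = 0.044 and 0.043), and that on Ifit2 without CAR ko 2 or PaS wt 3 (0.046 and 0.037). Rsad2 had -0.57 (adjusted p = 0.13) and Trim25 -0.44 (adjusted p = 0.20). So a call of Trim25 in 1 population and not in the other is not shown to be a difference between them.

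Upstream of these genes, interferons were close to absent from the libraries. None of 21 interferon genes reached the limit for testing, 15 were at 0 in all 12 libraries, Ifnb1 among them, and their summed level was at most 0.974 FPKM in a library. The receptors of type I interferon and of interferon gamma were expressed. The interferon lambda receptor chain Ifnlr1 did not reach the limit for testing, with group means of 0.138 to 0.308 FPKM. Ifnar2, the signalling chain of the type I receptor, averaged 250.4 ± 4.92 FPKM in wt CAR against 136 ± 12.8 FPKM in wt PaS cells, a difference of 0.88 (adjusted p = 3.5e-08). Ifnar1 had 12.6 ± 0.426 and 14.2 ± 0.722 FPKM in these groups (-0.16, adjusted p = 0.23). The interferon gamma receptor chain Ifngr2 was 0.67 higher in CAR wt (82.1 ± 6.42 against 51.4 ± 2.48 FPKM, adjusted p = 3.6e-06), and Ifngr1 had 134 ± 5.87 and 133 ± 10.9 FPKM (0.02, adjusted p = 0.88).

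Of 17 tested receptor and JAK-STAT genes, 8 were higher and 1 lower in wt CAR than in wt PaS cells (52.9% called, against 43.2% of all tested genes), and 9 and 1 in ko cells (58.8% against 36.9%). Between genotypes, 2 were higher and 1 lower in CAR ko (17.6% against 12.3%), and 0 were higher and 2 lower in PaS ko (11.8% against 7.44%). The phosphatase gene Ptpn6, which is strongest in blood cells, fell from 14.4 ± 0.912 to 5.80 ± 1.14 FPKM in CAR ko (-1.19, adjusted p = 2.2e-05). The kinase Jak1 rose by 0.22 in CAR ko (adjusted p = 0.024) and fell by 0.23 in PaS ko cells (adjusted p = 0.025), and the difference of these effects passed the test (0.45, adjusted p = 0.0038). Of the inhibitors, Socs1 rose by 0.30 in CAR ko (adjusted p = 0.026) and Socs3 fell by 0.20 in PaS ko (adjusted p = 0.036).

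Of 24 tested genes of nucleic acid sensing and interferon induction, 5 were higher and 1 lower in wt CAR than in wt PaS cells (25% called, against 43.2% of all tested genes), and 4 and 5 in ko cells (37.5% against 36.9%). Between genotypes, 0 were higher and 3 lower in CAR ko (12.5% against 12.3%), and 1 was higher and 1 lower in PaS ko (8.33% against 7.44%), so the shares between genotypes were near the background. In CAR ko cells Irf8 fell from 21.5 ± 1.88 to 12.6 ± 0.604 FPKM (-0.73, adjusted p = 0.0011), Irf5 from 6.25 ± 1.21 to 2.62 ± 0.942 FPKM (-1.02, adjusted p = 0.0019), and Rnaseh2b by 0.43 (adjusted p = 0.041). Irf8 and Irf5 are factors of myeloid cells. In CAR ko, 12 of 13 neutrophil, 6 of 14 monocyte and macrophage and 8 of 11 lymphoid markers were lower. With PaS ko, all 13 neutrophil markers were lower, and of the 14 monocyte and macrophage markers 3 were lower and 6 higher. There the ko means of Irf8 (17.2 FPKM) and Irf5 (7.93 FPKM) were not below their wt means (14.7 and 7.54 FPKM). The part of blood cells in the calls of Irf8 and Irf5 was not tested. In PaS ko cells the nucleotide hydrolase Samhd1 fell from 26.2 ± 2.47 to 20.8 ± 2.30 FPKM (-0.32, adjusted p = 0.040). The gene counted as higher in PaS ko was the endosomal RNA receptor Tlr7, with 0.504 ± 0.239 FPKM for PaS wt and 1.36 ± 0.0705 FPKM for PaS ko libraries. Tlr7 reached 1 FPKM only in the 3 libraries of PaS ko and so entered the test only through that group, which makes its call no support for a difference. Irf3, the factor that starts interferon induction, was not called in any comparison, at 22.1 ± 4.63 FPKM in CAR wt, 20.3 ± 2.54 in CAR ko, 17.7 ± 1.62 in PaS wt and 17.7 ± 0.608 in PaS ko.

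Of 73 other interferon-stimulated genes tested, outside the 33, 1 was higher and 11 lower in CAR ko (16.4% called, against 12.3% of all tested genes), and 2 were higher and 7 lower in PaS ko (12.3% against 7.44%). The 4 with the smallest p in CAR ko all fell: Ly6e (-0.48, adjusted p = 2.5e-05), Ifitm1 (-0.78, adjusted p = 4.3e-05), Lgals9 (-0.45, adjusted p = 4.7e-04) and Slfn2 (-1.01, adjusted p = 7.3e-04). In PaS ko cells, Sp140 (-0.94, adjusted p = 2.9e-04), Slfn2 (-1.10, adjusted p = 4.1e-04) and Ifi204 (-0.62, adjusted p = 5.9e-04) fell, and the chemokine Cxcl10 rose by 0.58 (adjusted p = 0.0010). The gene higher in CAR ko was Parp12 (0.36, adjusted p = 0.042), named after its value was seen, and the other gene higher in PaS ko is a predicted gene. Of 8 tested guanylate-binding proteins, large GTPases induced by interferon gamma, 4 were higher and 0 lower in CAR ko (50.0% called, against 12.3% of all tested genes), and 1 was higher in PaS ko (12.5% against 7.44%). In CAR ko cells Gbp8 rose from 0.738 ± 0.477 to 4.61 ± 0.127 FPKM, Gbp9 from 0.452 ± 0.195 to 2.73 ± 0.423 FPKM, Gbp4 from 1.03 ± 0.225 to 5.51 ± 1.02 FPKM and Gbp6 from 3.00 ± 0.400 to 5.19 ± 0.277 FPKM. In PaS ko cells Gbp8 rose from 1.94 ± 0.333 to 5.72 ± 1.67 FPKM. Gbp8 and Gbp9 averaged under 1 FPKM in CAR wt and needed libraries of other groups to enter the test. So their calls, and the share of 50.0% that counts them, are no support for a difference in CAR ko. The Gbp genes have near-identical copies, so their values are uncertain.

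Summed over the 33 genes, the level was 1003 ± 42.4 FPKM in CAR wt, 997 ± 3.50 FPKM in CAR ko, 644 ± 17.3 FPKM in PaS wt, and 645 ± 20.4 FPKM for the PaS ko libraries. The CAR sums lay above the PaS sums with no overlap, and ko and wt sums overlapped in both populations. Without Irf1 and Bst2, the sums were 408 to 447 FPKM in CAR wt, 403 to 420 in CAR ko, 320 to 341 in PaS wt and 329 to 365 in PaS ko, again with CAR above PaS.

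Markers of blood and endothelial cells were also present in these libraries. As background for their counts, 12.3% of all tested genes were called in CAR ko (6.51% higher, 5.74% lower). In PaS ko the share was 7.44% (3.41% higher, 4.03% lower). Between the wt populations it was 43.2% (20.5% higher and 22.7% lower in CAR). The 13 neutrophil markers summed to 10345 to 11876 FPKM in CAR wt, 4680 to 5313 in CAR ko, 22763 to 25472 in PaS wt and 7043 to 7217 in PaS ko. Of these, 12 were lower in CAR ko and 13 in PaS ko, and in wt cells 11 were lower in CAR than in PaS and 2 higher. Monocyte and macrophage markers summed to 628 to 785 FPKM in CAR wt, 302 to 339 in CAR ko, 1395 to 1502 in PaS wt and 1002 to 1120 in PaS ko, over 15 genes. Of the 14 tested, 0 were higher and 6 lower in CAR ko, 6 were higher and 3 lower in PaS ko, and 2 were higher and 10 lower in wt CAR than in wt PaS cells. Dendritic cell markers, 13 genes, summed to 37.2 to 41.5 FPKM in CAR wt, 33.2 to 38.6 in CAR ko, 54.3 to 60.6 in PaS wt and 59.8 to 66.5 in PaS ko. Of the 9 tested, 0 were higher and 5 lower in wt CAR than in wt PaS cells. In CAR ko 0 were higher and 3 lower, and in PaS ko 0 were called. Of the erythroid markers, 8 of 12 were higher in wt CAR than in wt PaS cells. They summed to 3724 to 4374 FPKM in CAR wt, 2221 to 2470 in CAR ko, 3319 to 3994 in PaS wt and 3934 to 4278 in PaS ko. Of the 12, 0 were higher and 9 lower in CAR ko, and 7 were higher and 0 lower in PaS ko. Lymphoid markers summed to 156 to 168 FPKM in CAR wt, 56.9 to 61.0 in CAR ko, 124 to 125 in PaS wt and 126 to 156 in PaS ko. Of the 11 tested, 0 were higher and 8 lower in CAR ko, and 1 was higher and 1 lower in PaS ko. Between the wt populations, 2 were higher and 2 lower in CAR cells. Endothelial marker sums were 24.2 to 25.3 FPKM over the CAR wt libraries, with 30.6 to 35.0 for CAR ko. The PaS sums were higher, at 89.1 to 99.0 FPKM for wt, with 82.6 to 89.8 for ko. Between the wt populations, 11 of 12 endothelial markers were called lower in CAR cells. So were 9 of 11 basophil, mast cell and eosinophil markers. Of these 11, 3 were higher and 3 lower in CAR ko, and 0 were higher and 5 lower in PaS ko. Of 9 tested megakaryocyte markers, 0 were higher and 4 lower in CAR ko, and 0 were higher and 6 lower in PaS ko. The part of these cells in the differences of single genes was not tested.

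**Figure D4:**
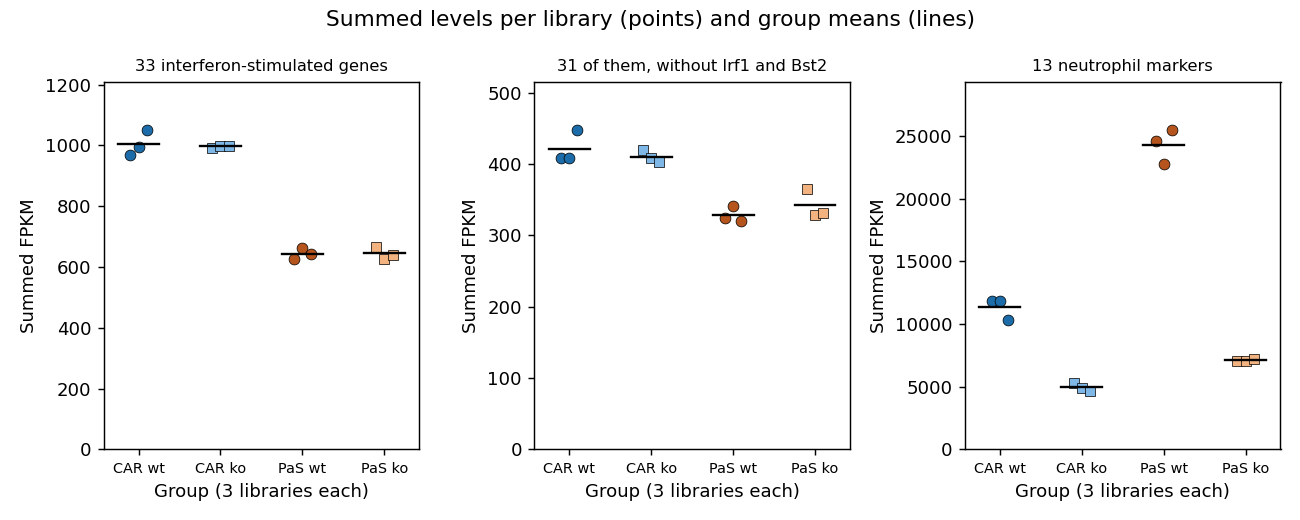
Summed FPKM per library (y axis, from 0) in the 4 groups (x axis) for the 33 genes (left), for the 31 without Irf1 and Bst2 (middle) and for 13 neutrophil markers (right), as points with lines for the group means. The sums of the 33 genes overlap between wt and ko, while the neutrophil markers fall from 22763 to 25472 FPKM in PaS wt to 7043 to 7217 in PaS ko.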

How the data were processed

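Libraries of the 12 RNA samples were prepared by SMART-Seq v4 as the labels' protocols state. The authors deposited FPKM values, in 12 tables of 24347 symbols each, per the file headers. The submitters' processing notes name bcl2fastq 2.17.1.14, TopHat2 2.0.14, Cufflinks 2.2.1, Cuffdiff and Cuffnorm 2.2.1 with mm10, without roles or order. The 8 ATAC-seq samples were not analysed here. Replicates differed in their values and were counted as separate libraries.

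Genes reaching 1 FPKM in 3 libraries were tested as log2(FPKM + 1), which understates the change of low genes. The test was limma 3.58.1 under R 4.3.3, with the 4 groups in 1 model (lmFit, contrasts.fit, eBayes, mean trend on; 8 residual and 6.95 prior degrees of freedom). It was two-sided, with Benjamini-Hochberg adjustment over the 12938 tested genes and calls at an adjusted p under 0.05. Differences are log2 with the model's standard error, and FPKM errors are standard deviations. The fit was tested on simulated data. No test was made over the list.

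The genes, lists and tests were chosen with earlier results of these data known. By rule, each of the 33 genes is accounted for, those called or with the 12 largest ko effects are given in every library, and up to 4 called genes of each other list with the smallest p are named, with Irf3, Ifnb1 and the receptors. A gene of this rule is not reported here. Alternatives changed the pseudocount (0.1, 5), the filter (none, 5 FPKM) and the scaling (median ratio, quantile), weighted the libraries, fitted the compared groups alone, added the replicate number as a block, or left out each library. Promoters came from RefSeq (GRCm38.p6) by symbol, matching 24 of 33. Python 3.11.15, pandas 2.3.3 and matplotlib 3.10.9 were used.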

Additional observations from a re-analysis of the deposited data

How the results depend on the processing

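No call or direction of a called gene reversed under the 21 alternatives (20 for the difference of the ko effects). The 16 calls between wt populations numbered 13 to 16 and the 14 between ko populations 12 to 16 when 1 library was left out, and 12 and 11 of them held under every alternative. Some alternatives also added calls. After quantile normalization, Irf9 and Parp14 were called higher in CAR cells of ko (limma adjusted p = 0.024 each), and Stat2 in wt (0.042). The calls on the ko effects were less stable: 0 of 2 in CAR and 0 of 1 in PaS cells held under every alternative. In CAR ko, 1 of the 31 genes was called with a pseudocount of 5, without a filter, after quantile normalization and when only the groups compared were fitted, 3 with library weights, and 0 to 2 when 1 library was left out. In PaS ko, 2 were called with a pseudocount of 5, 0 after quantile normalization, 0 when only the groups compared were fitted, and 0 to 1 when 1 library was left out. For the difference of the effects, 1 was called with a filter of 5 FPKM, 1 with library weights, and 0 to 1 when 1 library was left out. The cause was not tested. No scaling moved the median of all genes by more than 0.063. Read depth is unknown, so its limits cannot be given.

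With the replicate number as a block, 1 gene was called in CAR ko, 1 in PaS ko, 0 for the difference, 15 between wt and 16 between ko populations, and 1585, 961, 839, 5568 and 4785 of all genes. The block ended the calls of Rsad2 in CAR ko (adjusted p = 0.060) and of Ifit1 between wt populations (0.054). The numbers do not pair the samples: of 18 same-numbered pairs, 3 had a correlation of deviations over 0.1 (range -0.04 to 0.18), and a library correlated best with its own number in 9 of 36 comparisons.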

Other observations

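Other interferon-stimulated genes, outside the 33, also split between the populations, with 22 of 73 higher and 19 lower in wt CAR than in wt PaS cells (limma, adjusted p under 0.05), which is 56.2% called, beside 43.2% of all genes. The following were chosen after their values were seen. The chemokine Cxcl10 averaged 162 ± 9.18 FPKM in wt CAR against 58.2 ± 2.12 FPKM in wt PaS cells (SD, n = 3 each), a difference of 1.46 on the log2(FPKM + 1) scale. The GTPase genes Iigp1, Ifi47 and Tgtp2 were higher in CAR wt cells by 1.00, 1.20 and 1.28. Lgals3bp, a secreted glycoprotein, was higher by 0.88. Of the p200 family of DNA-binding proteins, Ifi205 averaged 0.256 ± 0.200 FPKM in wt CAR against 28.1 ± 1.27 FPKM in wt PaS cells, and Ifi204 had 9.37 ± 0.734 and 33.1 ± 2.88 FPKM. At its level in CAR wt, Ifi205 entered the test only through other groups, so a call on it is no support for a difference. Ifi27l2a was lower in CAR wt by 1.78 as a log2 difference, with 22.7 ± 6.15 FPKM against 79.3 ± 13.4 FPKM.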
